A study of Homo sapiens with 90 samples.

Results

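The transcriptome of HepaRG cells exposed to 3 µM fenbuconazole was compared with that of cells exposed to 3 µM imazalil. The members were chosen by their labels and not by a measured value: the 3 fenbuconazole arrays and the 3 imazalil arrays at that concentration, 6 of 90 array columns in the series. Each value was expressed as the log2 level less the mean of the 3 DMSO columns of the same compound's data set, and arrays were paired by replicate number. HepaRG is an established human liver tumour line that differentiates into hepatocyte-like and biliary-like cells. Cells received compound or vehicle for 24 h. The groups used were fenbuconazole at 9 concentrations, imazalil at the same 9 concentrations, the herbicide 2,4-D at the same 9 concentrations, and 0.2% DMSO, the solvent that every treated well also contained, with 3 arrays each. The 2,4-D arrays entered only the estimates of spread and of the replicate effect, and 10 of the 30 calls described below were made without them. All groups came from 1 line and carried no genetic change, and each replicate is described by the study as a separate batch of cells.

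Both compounds are azole fungicides, fenbuconazole a triazole and imazalil an imidazole. They act in fungi on the sterol 14-alpha-demethylase CYP51, and many azoles are also ligands or activators of the liver receptors that set drug metabolism. The nuclear receptors CAR and PXR drive CYP2B6 and the CYP3A genes, and the aryl hydrocarbon receptor AHR drives CYP1A1 and CYP1A2. In hepatocytes these enzymes oxidise drugs and other foreign compounds.

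The 3 CYP3A promoters printed here belong to the gene cluster that holds 3 of the 7 most stable differences (CYP3A4, CYP3A7 and ZSCAN25). The sequences are from RefSeq (GRCh38.p14, chromosome 7, minus strand, read 5′ to 3′ along the gene). A pair of half-sites 6 bases apart on opposite strands, an everted repeat that PXR is known to bind in the CYP3A4 promoter, is in capitals.
CYP3A4 (chr7:99784330-99784359): agaataTGAACTcaaaggAGGTCAgtgagt
CYP3A5 (chr7:99680086-99680115): agaacaTGAACTcaaaagAGGTCAgcaaag
CYP3A7 (chr7:99735341-99735370): agaataTTAACTcaatggAGGTCAgtgagt
The motif searched was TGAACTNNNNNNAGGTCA on both strands of the RefSeq promoter window of each gene, and the lines show it with its flanks. It was present in 3 of 35116 promoters (0.00854%), CYP3A4, CYP3A5 and ITGB1BP2. CYP3A7 carried it with the single substitution G2T, counted from the first base of the motif, and 46 promoters (0.131%) held it with at most 1 mismatch. In the promoter windows of CYP3A43 and ZSCAN25 the closest matches had 3 and 5 mismatches in the half-sites. CYP3A5, which holds the exact motif, did not pass at 3 µM. A match describes the letters only, and binding was not measured. A link between the motif and the differences was not tested.

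The arrays were checked before any gene was examined. The median level over all probe sets lay between 2.8 and 2.97 on the log2 scale across the 90 columns. Imazalil replicate 3 at 3 µM stood apart: its SD over genes from the other arrays of its replicate and compound was 0.290, against 0.148 to 0.262 in the 48 arrays of both compounds at other concentrations. Of the 54 treated arrays of both compounds it ranked 1 by that SD and 3 by median level. The median rank pools separately normalised sets and can understate its place. The same DMSO arrays had medians of 2.877, 2.928 and 2.857 in the fenbuconazole set and 2.847, 2.902 and 2.823 in the imazalil set. The 3 fenbuconazole arrays had SDs of 0.154, 0.161 and 0.161, and the other two imazalil arrays had 0.197 and 0.166. The main counts are therefore given with and without imazalil replicate 3.

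**Figure D1:**
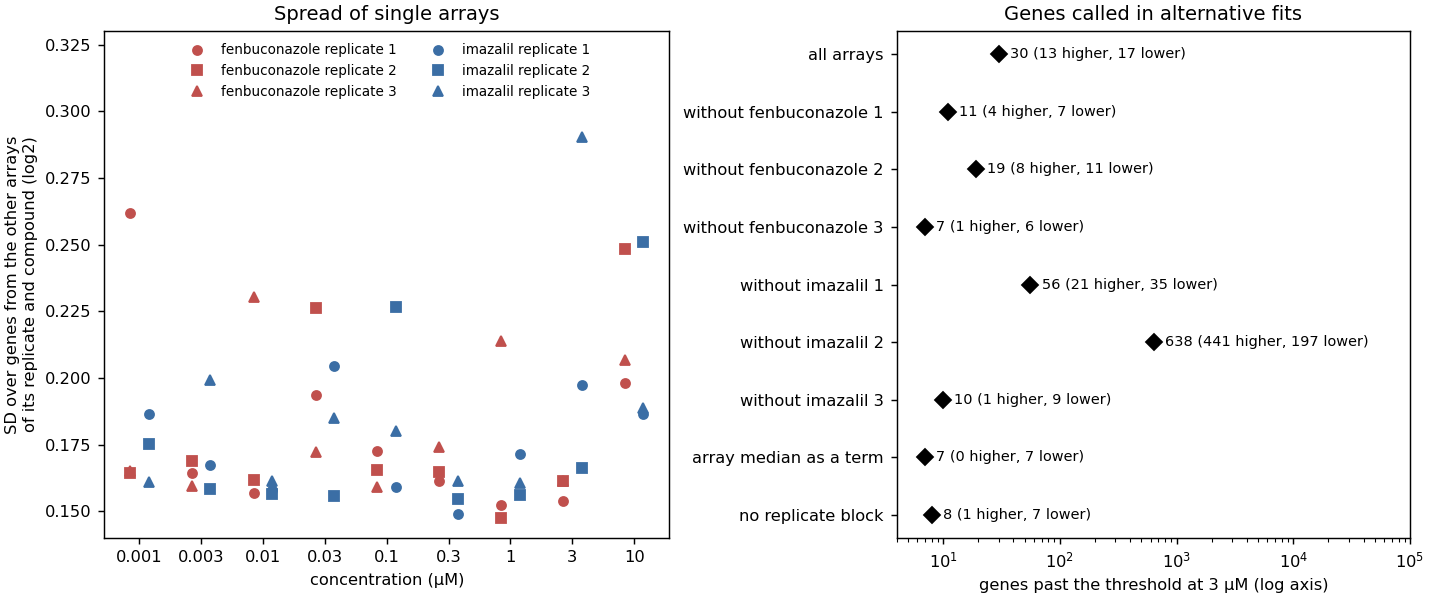
Left, the SD over genes of each array from the other arrays of its replicate and compound (log2) at each concentration, fenbuconazole left of imazalil, with symbols for replicates. Imazalil replicate 3 at 3 µM has the highest value, 0.290. Right, the number of genes past the threshold at 3 µM (log axis) with all arrays, with each array left out, with the array median as a term and with no replicate block, and in brackets how many were higher or lower with fenbuconazole.

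Hepatocyte markers were abundant in both groups. The array mean of the 9 hepatocyte genes, which include albumin (ALB), was 12 to 12.2 with fenbuconazole and 11.9 to 12 with imazalil. Of these 9 genes 0 passed the threshold (limma), and 2 were higher at an unadjusted p under 0.05 (8.38% of all genes were). AHSG, a plasma glycoprotein, differed by 0.40 (adjusted p = 0.137, limma). The biliary list of 8 genes averaged 5.40 to 5.59 per array with fenbuconazole and 5.43 to 5.51 with imazalil. Its differences ran from -0.34 to 0.18 with 3 below 0, and 0 passed (limma). At an unadjusted p under 0.05, 1 was lower (6.47% of all genes were). Without imazalil replicate 3, 3 were lower, as were 700 of all 19774 genes. The immune list of 6 genes averaged 3.04 to 3.12 per array with fenbuconazole and 3.13 to 3.29 with imazalil. Its markers PTPRC and CD3E lay at 2.15 and 2.73 with fenbuconazole and at 2.48 and 2.59 with imazalil, below the array median. Its highest member lay well above that median, at 6.45 with fenbuconazole and 6.65 with imazalil. The endothelial list of 5 genes averaged 3.10 to 3.27 and 3.13 to 3.25. In a mixed culture, fewer cells of a type and less RNA per cell cannot be told apart.

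At 3 µM the compounds differed in genes of both directions, and the genes with the smallest p were P450 genes that stood lower with fenbuconazole. Of 19774 genes, 30 passed an adjusted p of 0.05 (0.152%; limma with the replicate block, Benjamini-Hochberg over all genes): 13 were higher with fenbuconazole (0.0657%) and 17 lower (0.086%). Without imazalil replicate 3, 10 genes passed (0.0506%), of which 9 were among the 30, and 9 of the 10 were lower with fenbuconazole (0.0455%). With no replicate block, 8 genes passed (0.0405%), all among the 30. The genes called under all 3 of these fits were 7: CYP2B6, CYP3A4, CYP3A7, ZSCAN25, CYP1A1 and GPX2, lower with fenbuconazole, and FUT8, higher. The median difference over all genes was -0.01. The split by direction moved with the scaling: 9 of 30 calls were higher with fenbuconazole after quantile normalization, 370 of 568 with no subtraction of DMSO and 530 of 790 with the lowest concentrations subtracted in its place.

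CYP2B6, which metabolises bupropion and efavirenz and is a standard readout of CAR, was raised by both compounds and less by fenbuconazole. It stood 1.93, 1.49 and 1.52 above DMSO (log2) in the fenbuconazole arrays, and 3.10, 3.24 and 3.63 in the imazalil arrays. The groups did not overlap, a separation seen in 16.8% of all genes. The difference was -1.68 ± 0.19 (SE, n = 3 pairs; 95% interval -2.05 to -1.30, adjusted p = 1.07e-08, limma). Without imazalil replicate 3 it was -1.5. The same DMSO arrays had a CYP2B6 mean of 4.54 in the fenbuconazole set and 4.18 in the imazalil set, which were normalised separately. With no subtraction of DMSO the difference was -1.32. The SE, interval and p-value, here and in the other comparisons of the compounds at one concentration, treat the subtracted DMSO means as known exactly. CYP2B6 has a dimmer second probe set, which gave -0.37.

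CYP3A4, the most abundant drug-oxidising P450 of adult liver, gave 0.93, 0.53 and 0.52 with fenbuconazole and 1.99, 2.07 and 1.85 with imazalil. These means correspond to 1.58-fold and 3.92-fold of DMSO. The difference was -1.31 ± 0.10 (adjusted p = 7.31e-15, limma), the smallest p of the comparison. CYP3A7, the fetal member of the family, gave 0.49, 0.23 and 0.29 with fenbuconazole and 1.55, 1.56 and 1.48 with imazalil, a difference of -1.20 ± 0.10 (adjusted p = 5.28e-14, limma). In both genes all 3 imazalil arrays lay above all 3 fenbuconazole arrays, and in 16.8% of all genes the groups did not overlap in either direction. Of the 4 CYP3A4 probe sets, 3 gave -1.29 to -1.70, and the one at a mean level of 2.25 gave 0.00. The other CYP3A7 probe sets gave -0.64 and -0.12, and the mean over its probe sets was -0.65. The x_at probe sets that represent these genes may bind transcripts of related P450 genes, so CYP3A4 and CYP3A7 are not independent readings.

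ZSCAN25, a zinc finger gene beside the CYP3A genes, was also lower with fenbuconazole. Its brightest probe set gave 0.92, 0.53 and 0.90 with fenbuconazole and 1.73, 2.13 and 2.32 with imazalil (-1.28 ± 0.19, adjusted p = 2.76e-05, limma). Its other two probe sets gave -0.34 and -0.13. In RefSeq (GRCh38.p14) ZSCAN25 runs over chr7:99616946-99738035, a span that contains CYP3A5 (chr7:99648194-99679996) and CYP3A7 (chr7:99705036-99735196), with CYP3A4 (chr7:99756967-99784184) and CYP3A43 (chr7:99828013-99866093) next to it. Which transcript the bright probe set binds was not tested. CYP3A5 gave 0.17, 0.05 and 0.06 with fenbuconazole and 0.67, 0.24 and 0.23 with imazalil, and did not pass (-0.29, 95% interval -0.52 to -0.06, adjusted p = 0.218, limma). CYP3A43 differed by -0.72 and did not pass (adjusted p = 0.0988, limma).

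CYP1A1, the AHR target with the widest range of induction, had the largest difference in size at 3 µM. It gave 0.08, 0.16 and -0.22 with fenbuconazole, around the DMSO level, and 2.51, 1.4 and 1.29 with imazalil. The difference was -1.72 ± 0.20 (95% interval -2.12 to -1.32, adjusted p = 2.71e-08, limma), and -1.89 without imazalil replicate 3. Its level was 2.85 with fenbuconazole, about the median of an array, and 4.61 with imazalil, so differences on the log2 scale can understate the change of so low a signal. CYP1A2, the caffeine-oxidising neighbour of CYP1A1, gave 0.36, 0.13 and 0.19 against 1.11, 1.27 and 0.25, with the third imazalil array inside the fenbuconazole range. It did not pass (-0.65, 95% interval -1.08 to -0.22, adjusted p = 0.15, limma), but passed when both its probe sets were averaged (-0.67, adjusted p = 0.0064, limma). It also passed with the first residual component as a covariate (-0.95, adjusted p = 0.0253, limma). With the array median as a covariate it did not (-0.96, adjusted p = 0.0972, limma). Both covariates were chosen after seeing the data. Imazalil replicate 3 had the highest component score of the 54 treated arrays of both compounds, 17.9. CYP1B1, a further AHR target, differed by -0.05 (95% interval -0.26 to 0.16).

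**Figure D2:**
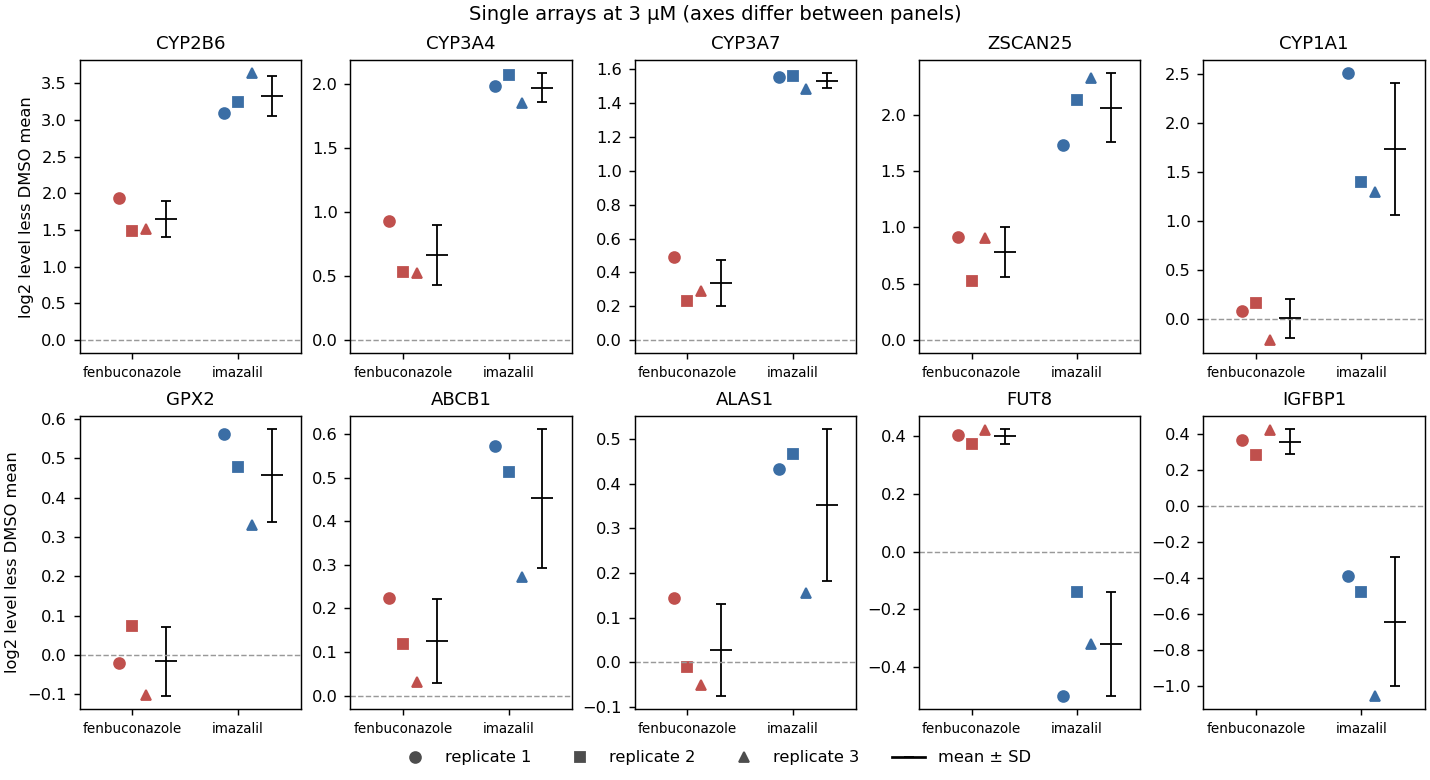
Log2 level less the DMSO mean in single arrays at 3 µM for 10 genes, fenbuconazole left and imazalil right, with symbols for replicates and the mean ± SD of 3 arrays beside them. The 10 genes were picked from those past the threshold. The groups do not overlap in any of the 10 panels, nor do they in 16.8% of all genes. The CYP1A1 arrays lie at -0.22 to 0.16 with fenbuconazole and at 1.29 to 2.51 with imazalil. The y axes differ between panels.

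The list of CAR and PXR targets, 16 genes measured, lay mostly below 0. Of the 16 genes, 5 passed, all lower with fenbuconazole, 11 were lower at an unadjusted p under 0.05 (6.47% of all genes were), and 14 had a negative difference. The list median was -0.27, against -0.01 over all genes. Without imazalil replicate 3 the same number passed, 5, and the median was -0.29. With no replicate block 3 passed. Beside the P450 genes the called members were ALAS1, the first enzyme of heme synthesis (0.14, -0.01 and -0.05 against 0.43, 0.47 and 0.16), and ABCB1, the P-glycoprotein efflux pump (0.22, 0.12 and 0.03 against 0.57, 0.51 and 0.27). Their differences were -0.32 and -0.33, each with an adjusted p of 0.0146 (limma), and both lost the call with no replicate block (adjusted p = 0.112 for ALAS1 and 0.19 for ABCB1). The second, dimmer ABCB1 probe set gave 0.25, and the mean of both gave -0.04 (adjusted p = 0.926). CYP2A6, the nicotine oxidase, gave 0.66, 0.39 and 0.64 against 1.08, 1.15 and 1.27 and just missed the threshold (-0.60, adjusted p = 0.0537, limma). Its dimmer probe sets gave -0.61, -0.66 and -0.69. The last of them passed in the fit over all probe sets (adjusted p = 0.0316, limma). POR, the electron donor of microsomal P450 enzymes, differed by -0.23 (95% interval -0.41 to -0.04), and CYP2C8 by -0.13 (95% interval -0.34 to 0.08).

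The genes that encode the receptors themselves showed no called difference. Of 12 receptor and regulator genes 0 passed (limma), 2 were higher at an unadjusted p under 0.05 (8.38% of all genes were), and the median was 0.03. AHR differed by 0.34 (95% interval 0.03 to 0.66, adjusted p = 0.291, limma), and NR1I3, which encodes CAR, by -0.07 (95% interval -0.37 to 0.23). In the AHR target list 1 of 8 genes passed, CYP1A1, with a list median of -0.21. ALDH3A1, an aldehyde dehydrogenase of that list, did not pass (-0.35, adjusted p = 0.0823, limma).

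GPX2, a glutathione peroxidase, passed outside these lists. It gave -0.02, 0.07 and -0.10 with fenbuconazole and 0.56, 0.48 and 0.33 with imazalil (-0.47 ± 0.08, adjusted p = 0.000725, limma). The list of NRF2 targets, 11 genes measured that protect against oxidants, does not hold GPX2 and need not hold every NRF2 target. Of its 11 genes 0 passed (limma), and the median was -0.21. At an unadjusted p under 0.05, 6 were lower (6.47% of all genes were) and 1 higher (8.38% of all genes were). Without imazalil replicate 3 that median was -0.19. Among them HMOX1, heme oxygenase, differed by -0.29 and AKR1B10, an aldo-keto reductase, by -0.23 (adjusted p = 0.0991 and 0.0818, limma).

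FUT8, the fucosyltransferase that adds core fucose to N-glycans, was the gene higher with fenbuconazole that held in all 3 fits. Its arrays gave 0.40, 0.37 and 0.42 with fenbuconazole and -0.50, -0.14 and -0.32 with imazalil (0.72 ± 0.12, adjusted p = 0.000984, limma). The dimmer second probe set gave 0.13, and the mean of both did not pass (0.42, adjusted p = 0.0561, limma). With the array median as a term FUT8 did not pass either (0.51, adjusted p = 0.151, limma). IGFBP1, an insulin-repressed binding protein of insulin-like growth factors, gave 0.37, 0.28 and 0.42 against -0.39, -0.48 and -1.06, a difference of 1.00 ± 0.19 (adjusted p = 0.00407, limma). Its call was lost without imazalil replicate 3 (0.84, adjusted p = 0.119) and with no replicate block (adjusted p = 0.0656).

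The other 11 genes called higher with fenbuconazole were ZNF529, MCTP2, LINC01419, TWSG1, ADH1A, PALMD, OSTM1, ELK3, MAPK9, PCNP and MDFIC, at 0.27 to 0.87. With all probe sets of a gene averaged, TWSG1, LINC01419 and ADH1A kept the call, the last 2 having 1 probe set each. The others of these 11 lost it, and the averages ran from 0.005 for MAPK9 to 0.63 for LINC01419. Dimmer probe sets gave -0.24 and -0.11 for MAPK9 and -0.28 for ELK3. None of these 11 passed without imazalil replicate 3 or with no replicate block. The differences are the same with no block, and without imazalil replicate 3 they were 0.63 for ADH1A, 0.60 for TWSG1 and 0.29 for MDFIC, and 0.39 for PALMD and 0.36 for OSTM1. In MCTP2 the imazalil arrays gave -0.56, -0.08 and -0.93, and in PCNP, a nuclear protein gene, -0.15, -0.03 and -0.39, with replicate 3 the lowest in both. ADH1A, a class I alcohol dehydrogenase, ran differently: the imazalil arrays gave -0.92, -0.51 and -0.45, against -0.24, -0.06 and 0.19 with fenbuconazole (adjusted p = 0.0419, limma). Among the genes lower with fenbuconazole, ABCG2, the breast cancer resistance efflux pump, gave 0.17, -0.02 and -0.30 against 0.63, 0.80 and 0.31 (-0.63, adjusted p = 0.0335, limma), with an adjusted p of 0.0516 without imazalil replicate 3. With the lowest concentrations subtracted in place of DMSO the ABCG2 difference was -0.19. CYP2A7, TMEM169, HHLA1, CRTAC1, PCDHGB6, ATP11A-AS1, TEX11 and FAF1, at -0.81 to -0.30, did not pass without that array, and of these 8 TMEM169 alone passed with no replicate block. With the array median as a term in the fit, 7 genes passed, all of them among the 30 and all lower with fenbuconazole.

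Each compound was also set against DMSO at 3 µM within its own data set, with no replicate block. The 2 comparisons used the same 3 physical DMSO arrays, so their values share that error. Fenbuconazole changed 1 gene (0.00506%): CYP2B6 rose by 1.65 ± 0.25 (adjusted p = 0.0115, limma). With the replicate block 3 genes passed, CYP3A4 (0.66, adjusted p = 0.00406) and ZSCAN25 (0.78, adjusted p = 0.007) being added, and 0 passed without any 1 of the DMSO arrays or without fenbuconazole replicate 1 or 3. Imazalil changed 11 genes (0.0556%), 10 of them upward. CYP2B6 rose by 3.33, ZSCAN25 by 2.06, CYP3A4 by 1.97, CYP1A1 by 1.73, CYP3A7 by 1.53 and CYP2B7P, a pseudogene beside CYP2B6, by 1.48. CYP2A6 (1.17), CYP3A43 (0.99), CYP2A7 (0.90) and the Notch regulator DTX1 (0.83) also rose, and the ribosomal pseudogene RPL13AP17 fell by 0.56. With the replicate block 17 genes passed. CYP2A6 and CYP2A7, and CYP2B6 and CYP2B7P, are close in sequence and may share probes. The CYP3A43 probe sets are all x_at sets at low mean levels, 3.55 to 3.86. They too may bind transcripts of related P450 genes, so CYP3A43 may not be a separate reading.

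The difference between the compounds was set beside that at the 8 other concentrations, 9 matched comparisons in all. At 0.001 to 0.3 µM 4 genes passed, all at 0.003 µM, and 1005 to 1718 had an unadjusted p under 0.05 per concentration: SLC51A and OLFML3 were higher and ABCG2 and USP49 lower with fenbuconazole, named here because of their count and after their values were seen. At 1 µM 2 genes passed (0.0101%), CYP3A4 and CYP2B6, both lower with fenbuconazole. CYP2B6 at 1 µM gave 0.45, 0.14 and 0.12 with fenbuconazole and 1.79, 1.27 and 1.33 with imazalil (-1.22, adjusted p = 0.00018, limma). CYP3A4 gave 0.21, -0.14 and -0.12 against 0.81, 0.70 and 0.51 (-0.69, adjusted p = 6.39e-05, limma). At 10 µM 144 genes passed (0.728%), 78 higher with fenbuconazole (0.394%) and 66 lower (0.334%). With p-values adjusted over the 9 concentrations as well as over genes, 3, 7, 1, 4, 2 and 0 genes passed at the concentrations from 0.001 to 0.3 µM in rising order, 3 at 1 µM, 17 at 3 µM and 85 at 10 µM.

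The difference was smaller at 10 µM than at 3 µM for CYP3A4 and CYP3A7 and larger in size for CYP1A1 and CYP1A2. For CYP3A4 the difference shrank to -0.47 at 10 µM (means 2.23 and 2.70 above DMSO with fenbuconazole and imazalil), and the change in the difference, 10 µM less 3 µM, was 0.84 ± 0.14 (adjusted p = 0.000434, limma). That of CYP3A7 was 0.74 (adjusted p = 0.00167, limma). CYP3A5 and CYP3A43 did not pass, with changes of 0.01 (95% interval -0.31 to 0.34) and -0.04 (95% interval -0.63 to 0.56). The difference of CYP1A1 was -3.06 at 10 µM (means 2.35 with fenbuconazole and 5.41 with imazalil), a change of -1.33 (adjusted p = 0.0171, limma). Since CYP1A1 with fenbuconazole lay near the array median at 3 µM, its difference there can be understated and this change overstated. The difference of CYP1A2 was -2.37, a change of -1.72. In all 21 genes passed this test of the change (0.106%). CYP2B6 was not among them: its difference was -1.55 at 10 µM, with fenbuconazole arrays at 2.41, 0.67 and 2.27 and imazalil arrays at 3.57, 2.91 and 3.51, and the interval of the change was -0.40 to 0.66. ZSCAN25 did not pass it (0.84, 95% interval 0.31 to 1.37, adjusted p = 0.361, limma).

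**Figure D3:**
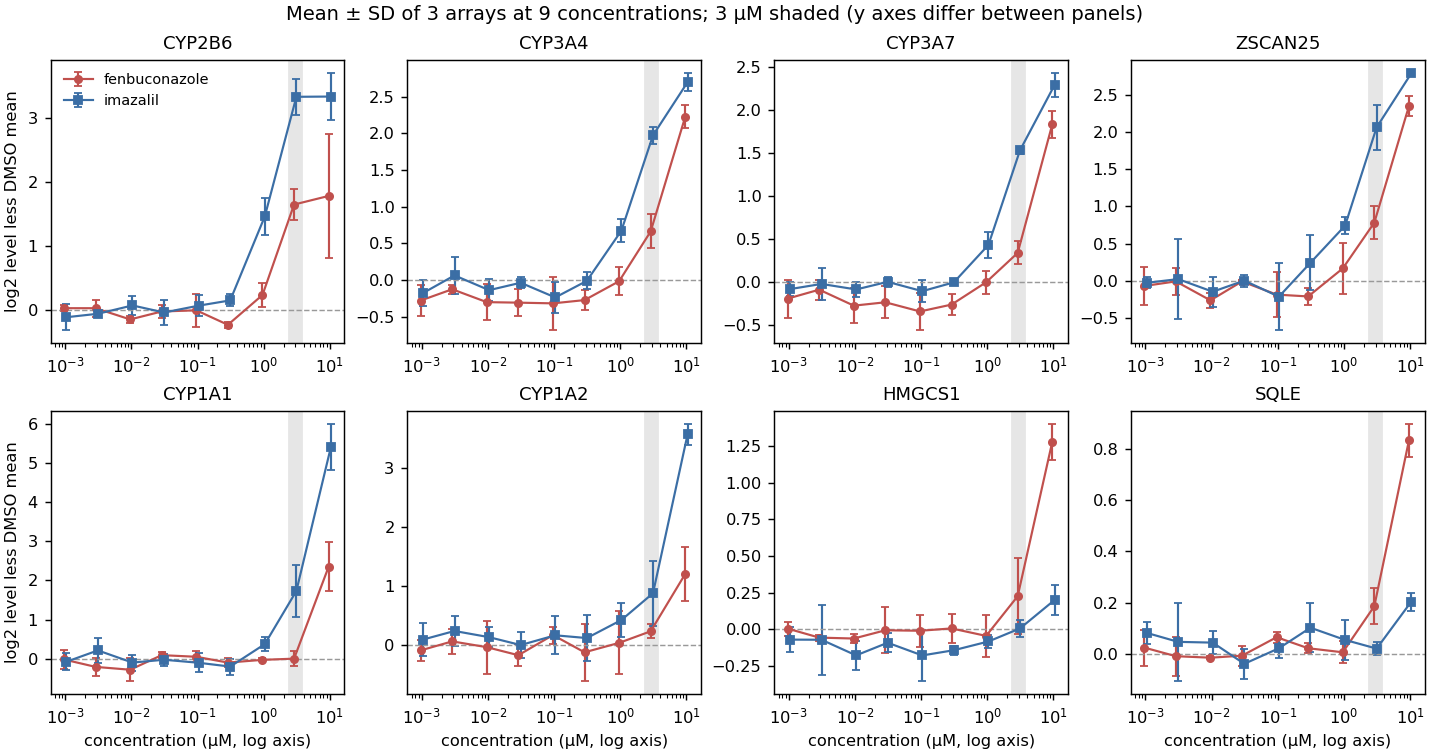
Mean log2 level less DMSO ± SD of 3 arrays against concentration (µM, log axis) for 8 genes, fenbuconazole with circles and imazalil with squares, and 3 µM shaded. CYP2B6 and the CYP3A genes part at 1 to 3 µM, CYP1A1 parts at 3 µM (0.01 and 1.73) and further at 10 µM, and HMGCS1 and SQLE part at 10 µM. The y axes differ between panels.

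Sterol synthesis, in which the human form of the fungal target acts, showed differences of the opposite sign at 3 µM. On the brightest probe set of each gene they were small. Hepatocyte markers (median 0.10) and the glycolysis and hypoxia list (median 0.14) showed a similar size. All 11 measured genes of the steps after squalene were above 0 (47.1% of all genes were), with a median of 0.13. Of these, 5 were higher at an unadjusted p under 0.05 (8.38% of all genes were), and 0 passed the adjusted threshold (limma). Without imazalil replicate 3 the 11 were again above 0, with a median of 0.14. CYP51A1, the human sterol 14-alpha-demethylase, gave 0.35, 0.24 and 0.06 with fenbuconazole and -0.11, 0.14 and -0.11 with imazalil (0.24, 95% interval 0.10 to 0.39, adjusted p = 0.0928, limma). SQLE, squalene epoxidase, differed by 0.17, TM7SF2, a sterol reductase, by 0.28, and SC5D, a sterol desaturase, by 0.31. After quantile normalization the differences were 0.10 for SQLE, 0.04 for LSS and 0.15 for HMGCS1, against 0.17, 0.10 and 0.22 without it. Dimmer probe sets gave 0.87 for CYP51A1, 0.40 for HMGCS1, 0.41 and 0.55 for LSS, and 0.02, 0.32 and -0.0013 for SQLE. With all probe sets of a gene averaged the differences were 0.56 for CYP51A1, 0.35 for LSS, 0.31 for HMGCS1 and 0.13 for SQLE. These averages did not pass (limma). In the mevalonate pathway, 8 genes, the median was 0.15, 0 passed (limma) and 4 were higher at an unadjusted p under 0.05. FDPS, which makes farnesyl diphosphate, came nearest (0.31, adjusted p = 0.0607, limma).

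At 10 µM 9 of the 11 late sterol genes and 6 of the 8 mevalonate genes passed, each higher with fenbuconazole (0.394% of all genes were). HMGCS1, the enzyme that makes HMG-CoA, gave 1.34, 1.36 and 1.14 with fenbuconazole and 0.29, 0.22 and 0.09 with imazalil, a difference of 1.08 (adjusted p = 7.29e-16, limma) against 0.22 at 3 µM. The change between the concentrations passed for HMGCS1 (0.86), LSS (0.54) and SQLE (0.46) and not for CYP51A1 (0.37, adjusted p = 0.206) or FDPS (0.28, adjusted p = 0.528). At that concentration 10 of the 16 targets of CAR and PXR passed, all lower with fenbuconazole (0.334% of all genes were), with a list median of -0.38.

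**Figure D4:**
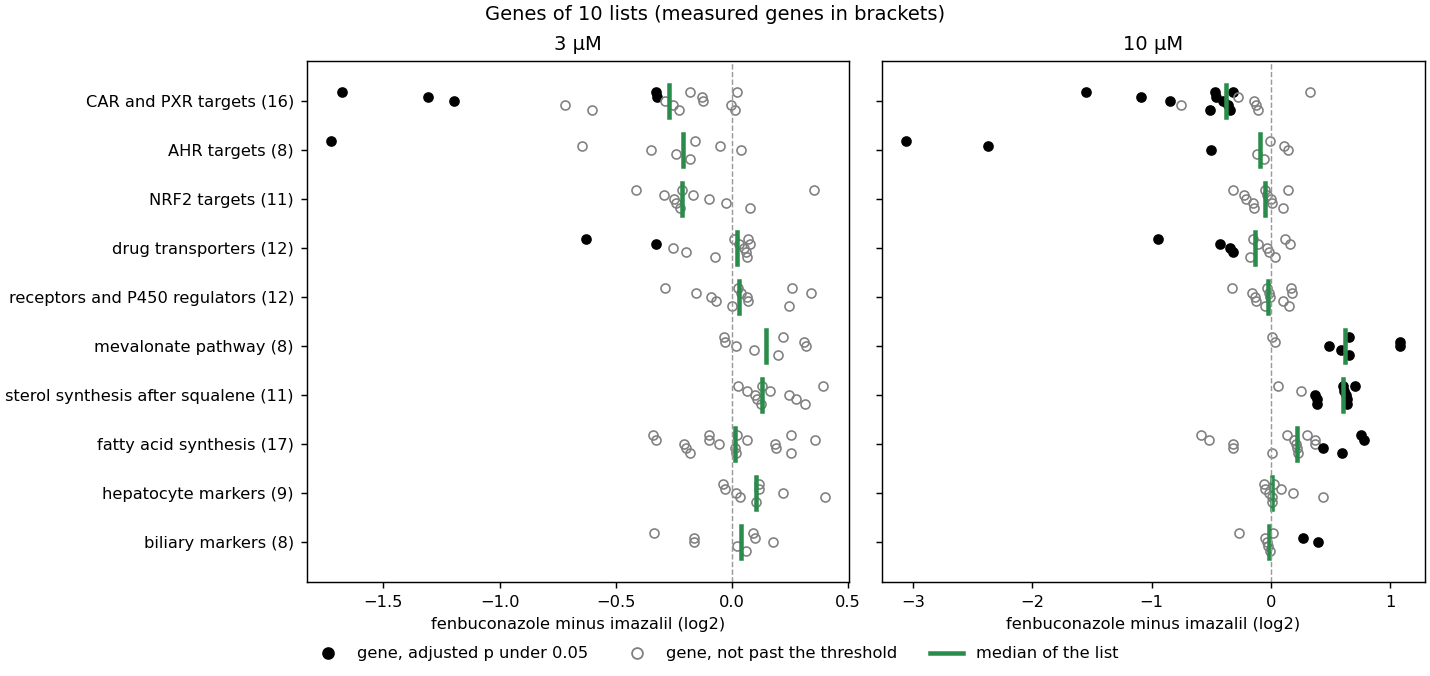
Fenbuconazole minus imazalil (log2) for each measured gene of 10 lists at 3 µM (left) and 10 µM (right). Filled points passed an adjusted p of 0.05, open points did not, and the green bar is the median of the list. At 3 µM the median is -0.27 for CAR and PXR targets and 0.13 for sterol synthesis after squalene, and at 10 µM -0.38 and 0.61.

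Among the remaining lists, the 6 immune markers had a median of -0.16. The 15 glycolysis and hypoxia genes had a median of 0.14, with 12 above 0 (47.1% of all genes were). The 12 drug transporters had a median of 0.02, with ABCG2 and ABCB1 the 2 that passed, and -0.11 without imazalil replicate 3. Fatty acid synthesis, 17 genes, had a median of 0.01 and 0 that passed (limma). At an unadjusted p under 0.05, 3 were higher (8.38% of all genes were) and 2 lower (6.47% were). FASN, the fatty acid synthase of that list, gave -0.04, -0.33 and -0.39 against 0.35, -0.03 and -0.05 (-0.34, adjusted p = 0.122, limma). Its difference at 10 µM was 0.37, a change of 0.71 that passed (adjusted p = 0.017, limma). The endoplasmic reticulum and ATF4 stress list, 17 genes, had a median of 0.07. TRIB3, a stress pseudokinase, differed by 0.09 at 3 µM (95% interval -0.07 to 0.26) and by 0.80 at 10 µM. In the fatty acid oxidation list, 17 genes and a median of 0.02, CYP4A11, a fatty acid hydroxylase, gave -0.34, -0.05 and 0.11 against -0.85, -0.30 and -0.24 and did not pass (0.37, adjusted p = 0.154, limma).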

How the data were processed

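HepaRG RNA was measured on the array type HT HG-U133+ PM of Affymetrix. The authors deposited log2 levels, summarised by RMA separately for each compound with the same 3 DMSO arrays. Partek is also listed in the submitters' processing notes, its version not given in the sources used here. Separate runs can shift a probe set between compounds. The mean of the same DMSO arrays differed between the fenbuconazole and imazalil sets with an SD of 0.109 over genes. The SE of the difference between compounds leaves this out. Of 54715 probe sets, 102 were controls and 40914 carried 1 gene symbol in the platform annotation, and 864 carried several. A gene was its brightest such probe set, 19774 genes in all.

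Values less the DMSO mean of their own set were fitted with limma 3.58.1 in R 4.3.3 (data.table, version 1.17.8): 81 treated columns, 2,4-D included for the estimate of spread, in 27 groups of compound and concentration with 3 replicates, with the replicate batch as a block, residual df 52, moderated two-sided tests, Benjamini-Hochberg over all genes at 0.05. Figures used matplotlib 3.10.9 in Python 3.11.15. The fit was tested on simulated data. Each compound against DMSO was fitted within its own set with no block, since the study states no replicate term for these arrays. For fenbuconazole and imazalil the replicate numbers equal the batch code of the labels, and the study calls replicates independent batches, so they pair the arrays. For 2,4-D the numbers and codes differ at some concentrations, and the code was used as the block. The check was weaker than that statement: deviations of same-numbered arrays correlated at 0.283, 0.055 and 0.0814, against a mean of -0.0698 for different numbers. Arrays have no counting depth, and their number limits the precision.

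Genes were named by a rule: called genes with 3 paired differences of one sign (up to 15 per direction), the 10 smallest p per direction, a panel of P450, sterol and stress genes, and the 2 smallest p of each of 29 lists, plus genes called against DMSO. FAF1 and TEX11 complete the 17 called. The members, lists and tests were chosen with earlier results of these data known. Alternatives were no block, other samples, gene summaries, filters, normalization, priors, reference subtraction and arrays left out. The array median and a residual component as terms were added after seeing the data.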

Additional observations from a re-analysis of the deposited data

Results flagged for a closer look

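The difference between the compounds changed between 3 and 10 µM in 21 genes, by limma's test of the change. Those among the named genes and lists were flagged for this reason, and values are the 10 µM difference less the 3 µM difference on the log2 scale, with fenbuconazole minus imazalil throughout. In the drug metabolism genes the change was -1.33 for CYP1A1, -1.72 for CYP1A2 and -0.53 for ALAS1, and it was 0.84 for CYP3A4 and 0.74 for CYP3A7. In the cholesterol and fatty acid genes it was 0.86 for HMGCS1, 0.98 for MVD, 0.46 for SQLE, 0.54 for LSS, 0.50 for DHCR7, 0.60 for STARD4, 0.53 for ACLY, 0.73 for ACSS2 and 0.71 for FASN. TRIB3 gave 0.71 and AP1M2, a clathrin adaptor subunit of epithelial cells, 0.73. MVD, DHCR7, STARD4, ACLY and ACSS2 were chosen for naming once their values were known. So were the remaining 5 of the 21, ANKRD29, ETNPPL, PRUNE2, SFN and TLCD1. Groups of 3 arrays were too small for a test of single outlying values.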

How the results depend on the processing

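Of 24 alternative fits, CYP2B6, CYP3A4 and CYP3A7 passed at 3 µM in 24, ZSCAN25 in 23, GPX2 in 22 and FUT8 in 19, and CYP1A1 passed in 22 of the 23 that measured it. The count of 30 genes at 3 µM was not stable. It was 8 with no replicate block, 568 with no subtraction of DMSO, 790 with the mean of the lowest concentrations subtracted, 10 with only the 54 columns of both compounds, 3 (CYP2B6, CYP3A4 and CYP3A7) with only the 6 columns at 3 µM, and 103 over genes with a mean level over 4. With the array median as a covariate it was 7, all lower with fenbuconazole, and with the first residual component as a covariate 12, both chosen after seeing the data. That component held 14.1% of the residual variance, and the residuals of imazalil replicate 3 enter it. Its array scores correlated at 0.783 with the array median over 54 arrays, and across genes, which are not independent, its loadings correlated at -0.684 with the 3 µM difference and -0.0874 with the 10 µM one. Leaving out arrays, pairs or DMSO columns gave 7 to 638: 638 without imazalil replicate 2, 56 without imazalil replicate 1, 10 without imazalil replicate 3, 11, 19 and 7 without fenbuconazole replicates 1, 2 and 3, 17, 251 and 7 without pairs 1, 2 and 3, and 68 without DMSO replicate 1 or 3. With all probe sets of a gene averaged 29 genes passed, of which 16 were among the 30. In that fit FAF1 reversed to 0.0225. The cause was not tested in any of these. The 150 calls at the other concentrations fell to 109 with no replicate block and 122 with only the 54 columns of both compounds. They became 1274 with no subtraction, 226 with the low concentrations subtracted, 227 over probe sets and 228 with the component. Without a DMSO replicate they were 171 to 176. The 21 changes between 3 and 10 µM became 10 with no replicate block and 13 (without replicate pair 3) to 48 (without imazalil replicate 2) with arrays left out. Against DMSO, fenbuconazole's 1 call became 3 with the replicate block, 2 over probe sets and 0 to 1 with arrays left out, and imazalil's 11 became 17, 20 and 8 to 15.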
